A study of Mus musculus with 4 samples.

Results

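The nuclear genes for the proteins of the mitochondrial ribosome were followed through an RNA sequencing experiment on mouse embryonic stem cells (ESCs) depleted of YTHDF2. A gene was a member when its symbol in the deposited table was Mrpl or Mrps followed by a number and at most 1 letter. This took 78 of the 49997 rows of the table, with 49 genes named for the large subunit and 29 for the small subunit. All 78 had enough reads to be tested, so none was lost to a filter on low counts. The libraries came from ESCs labelled as the E14 line that had been infected with lentivirus carrying a short hairpin RNA (shRNA). The 2 shScramble libraries carried a hairpin without a named target, and the 2 shYthdf2 libraries carried a hairpin against Ythdf2, which encodes a reader protein that binds methylated adenosines in mRNA and speeds the decay of the transcript. The cells of all 4 libraries shared the viral vector, puromycin selection, gelatin-coated dishes and medium with LIF and a serum replacement. The study's methods describe stable lines made in ESCs with a tdTomato transgene under a MERVL promoter and call the libraries of a group independent biological replicates. The labels do not say which of the Ythdf2 hairpins was used, so an effect of 1 hairpin sequence cannot be told apart from the loss of YTHDF2.

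The mitochondrial ribosome makes the few proteins encoded by mitochondrial DNA, all of them subunits of the oxidative phosphorylation complexes. Its ribosomal RNAs come from the mitochondrial genome, whereas its proteins are encoded in the nucleus, translated in the cytosol and imported. Some of these proteins have counterparts in the bacterial ribosome and others are found only in mitochondria. The small subunit binds the mRNA and decodes it, and the large subunit forms the peptide bond and holds the exit tunnel at the inner membrane. Names and positions do not always match: the products of Mrps30 and Mrps18a sit in the large subunit, and the product of Mrps36 is now assigned to the oxoglutarate dehydrogenase complex.

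The deposited values were raw counts of reads per gene, between 31113006 and 36422510 reads a library, of which the 78 genes took 0.394% to 0.474%. Levels below are counts per 1000000 reads (CPM) after scaling by the trimmed mean of M values (TMM), and a log2 fold change is always shYthdf2 over shScramble. Ythdf2 itself had 93.4 and 87.6 CPM in the controls and 31.8 and 30.2 CPM in the knockdown libraries, so that 34.2% of the control mean was left (log2 fold change −1.55 ± 0.11 SE, adjusted p = 0.000693 by edgeR's quasi-likelihood test). Among pluripotency markers 0 of 7 passed an adjusted p of 0.05 in edgeR (1 had an unadjusted p below 0.05, Nanog, which DESeq2 and limma-voom called lower), and their summed level was 5220 to 5451 CPM in the controls and 4924 to 5178 CPM after knockdown. Markers of 2C-like cells, a rare state of ESCs that resembles the embryo at the 2-cell stage, summed to 30.4 and 45.9 CPM in the controls and to 62.9 and 171 CPM after knockdown, with 3 of the 6 tested passing. Markers of other cells were low: the trophoblast list summed to 12.6 to 16.0 CPM in the controls and 6.79 to 8.75 CPM after knockdown, the fibroblast list to 22.1 to 28.3 and 12.7 to 22.3 CPM with Dcn at 0 in every library, and the primitive endoderm list to 9.08 to 10.1 and 6.43 to 10.8 CPM. Of the 4 trophoblast genes tested, 3 (Gata3, Krt8 and Krt18) were lower at an unadjusted p below 0.05 in edgeR, and Cdx2 was above 0. Of the 4 fibroblast genes tested 1 (Col1a1) was lower at that level, and of the 4 primitive endoderm genes 0. Over all genes tested, 9.8% were lower at that level. In these 3 lists 0 genes passed the adjusted threshold in edgeR. The part of these cell types in the results below was not tested, and in bulk RNA fewer cells of a type and less RNA per cell cannot be told apart.

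Most mitoribosomal protein genes had slightly more mRNA after Ythdf2 knockdown, but few passed the test gene by gene. The log2 fold change was above 0 for 67 of the 78 genes, against 50.2% of the 18341 genes tested, and the median was 0.16, against 0.00 over all genes. The values ran from −0.38 for Mrpl9 to 0.67 for Mrpl3. At an adjusted p below 0.05 (edgeR, Benjamini-Hochberg over all genes tested), 4 genes rose, namely Mrpl3, Mrps34, Mrpl40 and Mrpl17, and 0 fell. Over all genes 3.91% passed, 2.43% as higher and 1.49% as lower. At an unadjusted p below 0.05, 20 of the 78 were higher and 1 was lower, where 11% and 9.8% of all genes were. Both shYthdf2 libraries lay above both shScramble libraries for 42 genes and below both for 5, against 26.2% and 25.5% of all genes, and the groups overlapped for the other 31. With DESeq2 10 members were higher and 0 lower at an adjusted p below 0.05, against 2.64% and 2.01% of the genes it fitted. These shares include genes of low count that DESeq2 gave no adjusted p, which lowers them, whereas all 78 members had one. Under the study's own criteria, a DESeq2 p of at most 0.05 and at least a 2-fold change, 0 members passed in either direction, against 1.63% higher and 1.25% lower overall.

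The changes were small, and the data bound them. The 95% interval of the log2 fold change lay between −1 and 1 for all 78 genes, against 59.1% of all genes, so a 2-fold change was outside the interval of each. For 51 of the 78 it lay within a 1.5-fold change either way, against 35.9% of all genes. The width of an interval depends on the SE, whose median was 0.13 for the members and 0.21 over all genes. For the cytosolic ribosomal protein genes all 76 intervals lay within both bounds, so narrow intervals are not particular to this family. The count of 4 was not stable to the libraries or the settings. It was 8 without shScramble replicate 1, 2 without shScramble replicate 2 and 17 without shYthdf2 replicate 2, it was 2 with RLE or upper quartile scaling or limma-voom, and it was 10 with no filter on low counts. Mrpl3 and Mrps34 passed an adjusted p of 0.05 in the 13 other fits run, though not the 2-fold criterion of the study, and Mrpl40 and Mrpl17 passed in 9 of those fits.

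The shift was larger in one of the knockdown libraries. Relative to the mean log2 level in the controls, the median member stood at 0.04 in shScramble replicate 1 and −0.04 in shScramble replicate 2, at 0.24 in shYthdf2 replicate 1 and at 0.10 in shYthdf2 replicate 2. Both knockdown medians were therefore above both control medians, and the gap between the knockdown libraries was wider than the gap between the controls. With shYthdf2 replicate 1 left out, 51 of 78 genes were above 0 and the median was 0.09. The 76 genes for the proteins of the cytosolic ribosome moved between the same libraries: their median stood at 0.14 in shYthdf2 replicate 1 and at −0.10 in shYthdf2 replicate 2. Their median log2 fold change was 0.03, and 0 of 76 passed the adjusted or the unadjusted threshold in edgeR, or the adjusted one in DESeq2 or limma-voom. The 13 mRNAs of the mitochondrial genome had medians of 0.38 and −0.04 in these libraries, a median log2 fold change of 0.17 and 0 genes past the adjusted threshold in edgeR, with 2 higher at an unadjusted p below 0.05 and 1 (COX2) called higher by DESeq2. The 2 were 15.4% of the 13, against 11% of all genes tested. What sets the replicate gap was not tested.

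**Figure D1:**
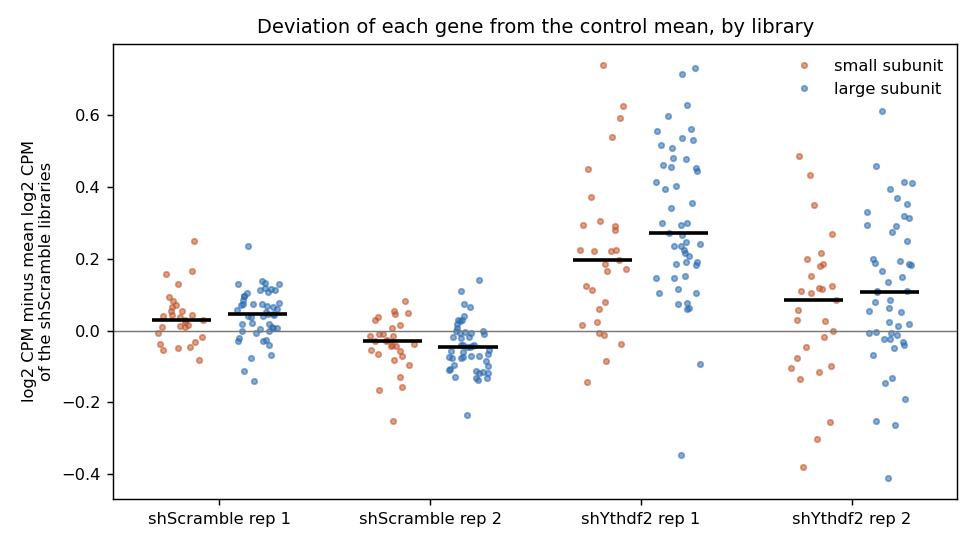
Each point is 1 mitoribosomal protein gene in 1 library, as its log2 CPM minus its mean log2 CPM in the shScramble libraries (y axis), coloured by subunit as named; black lines are medians. The large subunit medians were 0.27 and 0.11 and the small subunit medians 0.20 and 0.09 in shYthdf2 replicates 1 and 2, all above the control medians.

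In the large subunit, 44 of 49 genes had a log2 fold change above 0, with a median of 0.19, and 3 rose at an adjusted p below 0.05. Over all genes tested, 50.2% were above 0 and 2.43% passed as higher in edgeR. Mrpl3 encodes a core protein of the large subunit with a bacterial counterpart. It had 46.1 and 43.3 CPM in the controls and 74.2 and 68.3 CPM in the knockdown libraries. The groups were well apart, and the log2 fold change was 0.67 ± 0.12 (SE, edgeR adjusted p = 0.0169), or 1.59-fold. Its adjusted p was at or below 0.0220 in the 13 other fits. The gene lies at chr9:105053268-105077466 on the plus strand of mm10.

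Mrpl40 encodes a protein found only in mitochondrial ribosomes, and its human counterpart lies in the region deleted in DiGeorge syndrome. Its level was 52.3 and 47.2 CPM in the controls and 71.1 and 68.3 CPM after knockdown (log2 fold change 0.49 ± 0.11 SE, edgeR adjusted p = 0.0478). Mrpl17, which encodes another core protein shared with bacteria, had 89.5 and 77.0 CPM in the controls and 128 and 111 CPM after knockdown (log2 fold change 0.52 ± 0.12 SE, edgeR adjusted p = 0.0486). Neither pair of groups overlapped, but both adjusted p-values were just below the threshold. Without shScramble replicate 2 they were 0.234 for Mrpl40 and 0.201 for Mrpl17. Mrpl40 lies at chr16:18872018-18876637 and Mrpl17 at chr7:105803782-105811087, both on the minus strand of mm10.

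Further large subunit genes had the same direction without passing. Mrpl19 had 38.1 and 33.3 CPM in the controls and 58.4 and 46.9 CPM after knockdown, a log2 fold change of 0.56 with an adjusted p of 0.0625 in edgeR. Of its exon bases 22.8% also belong to exons of Gcfc2, and the counting did not use strand, so reads of these genes cannot be told apart there. Mrpl12, whose product forms the stalk that recruits translation factors, had 91.9 and 76.6 CPM in the controls and 124 and 105 CPM after knockdown (log2 fold change 0.44, edgeR adjusted p = 0.0949). Mrpl58, a peptidyl-tRNA hydrolase that became part of the large subunit, had 46.7 and 39.0 CPM in the controls and 56.1 and 47.9 CPM after knockdown, and its edgeR adjusted p was 0.290. Both groups were apart for these genes, by less than in Mrpl3.

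**Figure D2:**
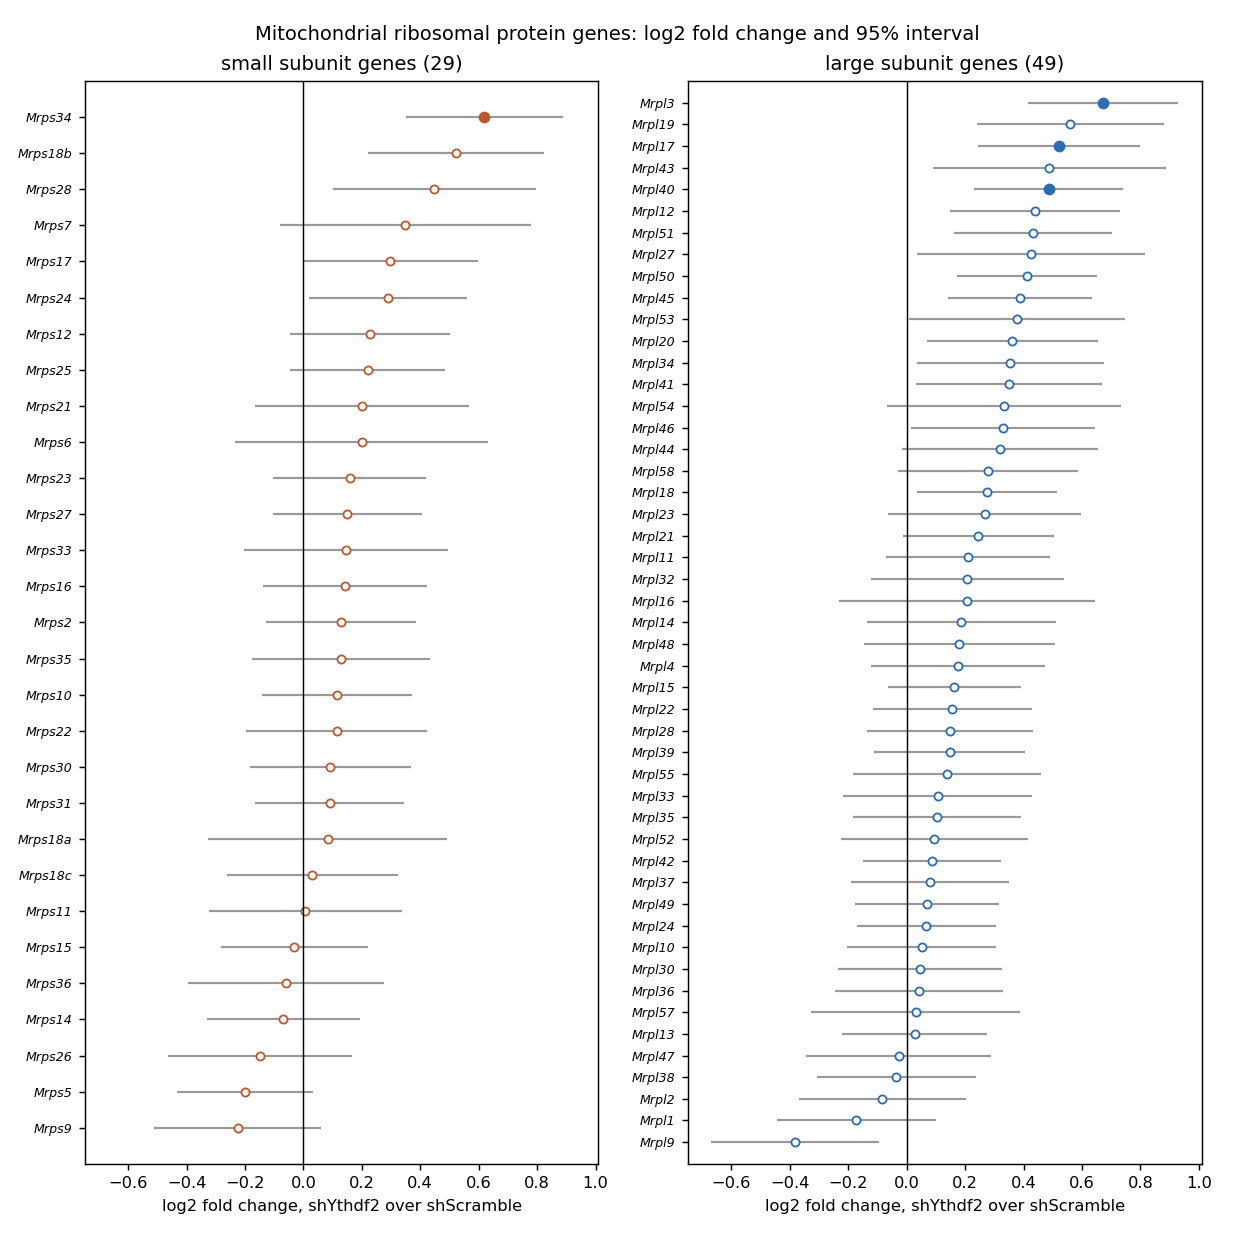
Log2 fold change of shYthdf2 over shScramble (x axis) with its 95% interval from edgeR for each of the 29 small and 49 large subunit genes, ordered by value; filled points have an adjusted p below 0.05. Mrpl3, Mrpl17, Mrpl40 and Mrps34 are filled, and Mrpl9 is the lowest at −0.38.

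Of the 29 genes named for the small subunit, 23 had a log2 fold change above 0, with a median of 0.13, and 1 rose. The shares over all genes tested were 50.2% above 0 and 2.43% passing as higher in edgeR. Mrps34 encodes a mitochondria-specific protein of the small subunit, and its human counterpart is mutated in a form of Leigh syndrome. It had 73.3 and 69.1 CPM in the controls and 119 and 99.8 CPM in the knockdown libraries. The groups did not overlap, with the knockdown libraries further from each other than the controls were, and the log2 fold change was 0.62 ± 0.12 (SE, edgeR adjusted p = 0.0263). The adjusted p was at or below 0.0319 in the 13 other fits. Mrps34 lies at chr17:24895120-24896289 on the plus strand of mm10.

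The paralogues of the Mrps18 family gave different values. Mrps18b, whose product sits in the small subunit, had 75.7 and 60.1 CPM in the controls and 104 and 91.1 CPM after knockdown, a log2 fold change of 0.52 with an adjusted p of 0.0640 in edgeR. Mrps18c, also a small subunit gene, had 30.9 and 33.3 CPM in the controls and 33.9 and 31.7 CPM after knockdown, and its groups overlapped. Mrps18a, whose product sits in the large subunit, had 26.6 and 21.4 CPM in the controls and 29.2 and 21.7 CPM after knockdown, which also overlapped. The 95% interval of the log2 fold change was 0.22 to 0.82 for Mrps18b, −0.26 to 0.32 for Mrps18c and −0.33 to 0.49 for Mrps18a. These intervals share values, and the differences between the paralogues were not tested.

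Other genes named for the small subunit, with known roles, stayed closer to the controls. Mrps12, whose product lies at the decoding centre, had 35.5 and 37.0 CPM in the controls and 41.2 and 43.6 CPM after knockdown (edgeR adjusted p = 0.331). Mrps27, which encodes a pentatricopeptide repeat protein, had 46.8 and 45.7 CPM in the controls and 50.02 and 52.6 CPM after knockdown (edgeR adjusted p = 0.507). Mrps30, placed in the large subunit by structure, had 93.5 and 85.3 CPM in the controls and 104 and 86.4 CPM after knockdown, so its groups overlapped. The 95% interval of the log2 fold change was −0.05 to 0.50 for Mrps12, −0.11 to 0.40 for Mrps27 and −0.18 to 0.37 for Mrps30.

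A few members were lower after knockdown in both libraries, and none passed the adjusted threshold. Mrpl9, a core gene of the large subunit, had 44.4 and 39.5 CPM in the controls and 32.9 and 31.5 CPM after knockdown (log2 fold change −0.38 ± 0.13 SE, edgeR adjusted p = 0.132), the only member lower at an unadjusted p below 0.05. Mrps9 had 63.8 and 67.3 CPM in the controls and 61.8 and 50.4 CPM after knockdown, and Mrps5 had 150 and 145 CPM in the controls and 133 and 123 CPM after knockdown. Both encode core proteins of the small subunit. Mrpl1, whose product forms the mobile stalk at the tRNA exit side, had 54.6 and 49.6 CPM in the controls and 48.8 and 43.7 CPM after knockdown. Mrps14 completed the 5 genes with both knockdown libraries below the controls, at a log2 fold change of −0.07. For Mrps26, at 40.5 and 37.5 CPM in the controls and 38.8 and 31.6 CPM after knockdown, the groups overlapped.

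**Figure D3:**
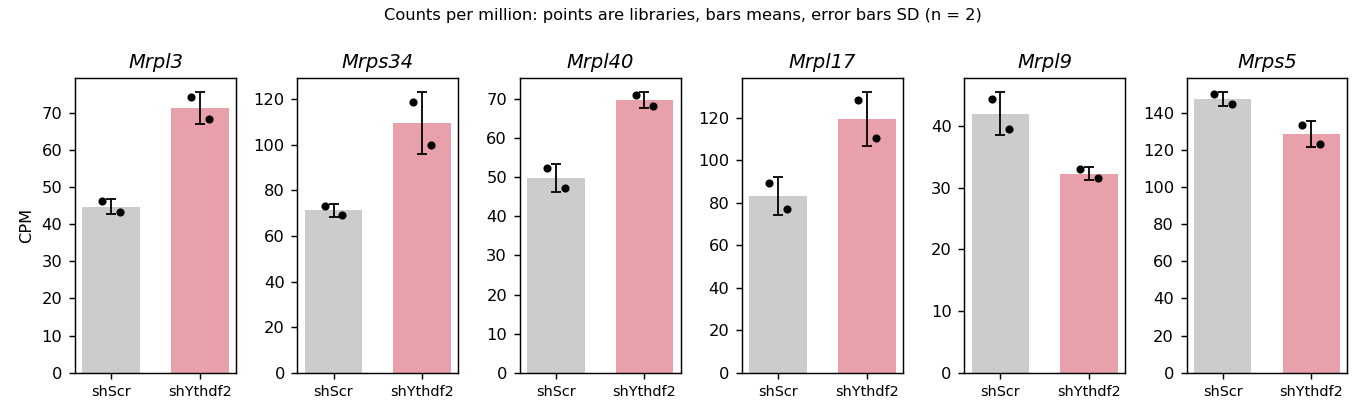
CPM (y axis) of the 4 genes that rose and of Mrpl9 and Mrps5, the pair of lowest unadjusted p among genes below 0, which did not pass; points are libraries, bars means and error bars SD (n = 2). Every knockdown point lies above both control points for Mrpl3, Mrps34, Mrpl40 and Mrpl17 and below both for Mrpl9 and Mrps5.

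With genes assigned to subunits by name, the medians and the summed levels of both subunits were higher after knockdown. The difference between the subunits was not tested. Summed over genes as CPM per kilobase of exon (RPKM), the small subunit had 1070 and 1011 in the controls and 1226 and 1092 after knockdown, and the large subunit had 1829 and 1703 in the controls and 2135 and 1867 after knockdown. Neither pair of groups overlapped, and the ratios of the means were 1.11 and 1.13. The pooled SD between replicates of these sums on the log2 scale was 0.09 for the small and 0.11 for the large subunit, beside log2 ratios of 0.16 and 0.18. Without shYthdf2 replicate 1 these log2 ratios were 0.07 and 0.08, and without shYthdf2 replicate 2 they were 0.24 and 0.27. An exact test of 2 against 2 libraries cannot reach p = 0.05, so the sums were not tested. The ratio of small to large subunit sums was 0.585 and 0.594 in the controls and 0.574 and 0.585 after knockdown, so the nearest libraries of the 2 groups were closer to each other than replicates were. The small subunit median log2 fold change was 0.06 below the large subunit median. The pooled SD of 0.02 between replicates was taken from another measure, library medians centred on all 4 libraries. With 2 libraries a group it is itself uncertain. Centred on the controls, the small and large subunit medians were 0.20 and 0.27 in shYthdf2 replicate 1, and 0.09 and 0.11 in shYthdf2 replicate 2. The difference shrank to 0.02 without shScramble replicate 1 or without shYthdf2 replicate 1. With Mrps30 and Mrps18a moved to the large subunit, the medians were 0.14 for 27 small and 0.18 for 51 large subunit genes. Mrps36 was still counted as small there. At an unadjusted p below 0.05 in edgeR, 16 of 49 large and 4 of 29 small subunit genes were higher. These were 32.7% and 13.8%, against 11% of all genes tested, so the small subunit share was near that of all genes. Lower at that level were 1 large and 0 small subunit genes, against 9.8% of all genes.

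A listed counterpart in the bacterial ribosome, or the lack of one, gave a further division. The 19 large subunit genes without a bacterial counterpart had a median log2 fold change of 0.32 with 18 above 0, against 0.17 for the 30 with a counterpart. Among the genes named for the small subunit the medians were 0.14 for the 14 without and 0.13 for the 15 with a counterpart, too close to order. The 14 include Mrps30 and Mrps18a, whose products sit in the large subunit, and Mrps36. Mrps18a and Mrps18b, also among the 14, are paralogues of Mrps18c, which was counted with a counterpart, so the division is not by descent there. The 14 also include Mrps28, whose place among them is uncertain, and the order of the medians turns if Mrps28 is moved. Within shYthdf2 replicates 1 and 2 the large subunit genes without a counterpart stood at 0.40 and 0.15 above the controls, and those with one at 0.25 and 0.06. This division was described and not tested.

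Per length, the members spanned a wide range of levels. The mean over the 4 libraries ran from 4.48 RPKM for Mrpl48 to 160 RPKM for Mrpl42, with a median of 29.7 RPKM. By this mean, Mrpl12 at 101 RPKM, Mrps34 at 98.8 RPKM, Mrpl2 at 96.2 RPKM and Mrps5 at 96.1 RPKM came next. The mean pools both groups, and the order depends on them: in the controls Mrps34, at 77.9 RPKM, was below Mrps5 (103), Mrpl2 (98.97), Mrpl12 (85.9), Mrpl13 (83.9) and Mrpl52 (79.4), and after knockdown it was at 120 RPKM. Mrpl42 was above the other 77 in each library, whereas the levels of Mrpl12, Mrps34 and Mrpl2 overlapped across libraries. Mrpl2 is a core gene of the peptidyl transferase centre, and it had 111 and 110 CPM in the controls and 116 and 92.0 CPM after knockdown. The lowest after Mrpl48 were Mrps25 at 6.73 RPKM, Mrpl27 at 6.93 RPKM and Mrpl19 at 8.81 RPKM. These genes have long annotated exon unions, of 2596 to 6076 bases against 689 to 1115 bases in the 4 highest, and the value per length depends on that union. For Mrps25, 58.4% of exon bases also belong to exons of Nr2c2, the largest such share among the members.

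**Figure D4:**
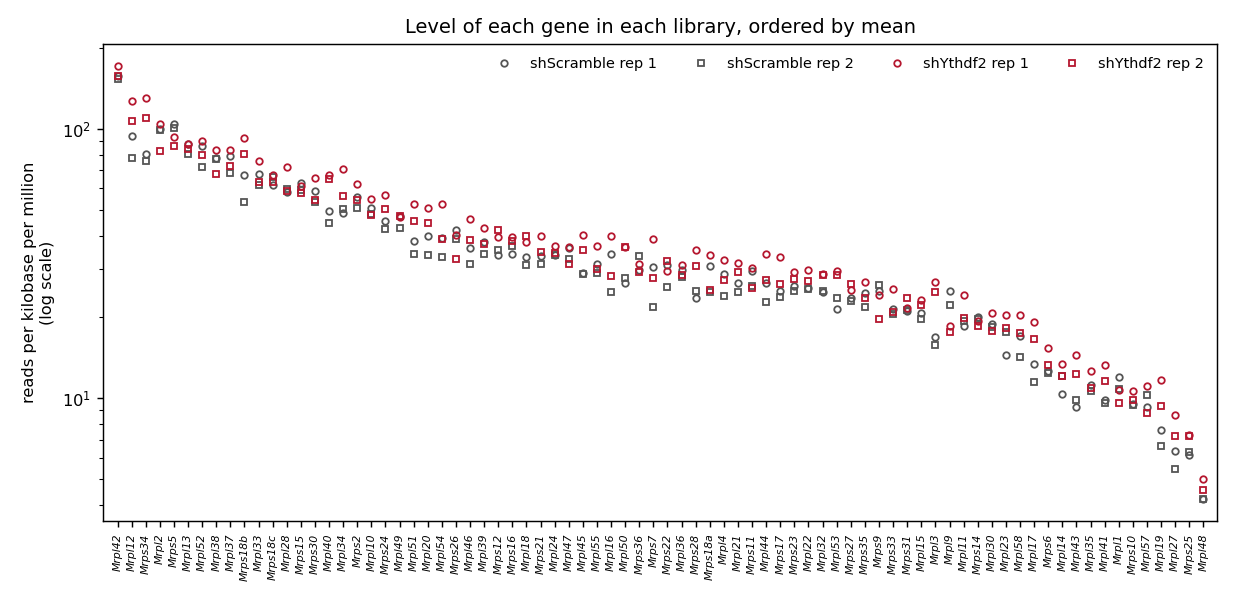
RPKM (y axis, log scale) of each of the 78 genes in each library, ordered by the mean over libraries from Mrpl42 at 160 to Mrpl48 at 4.48. Grey symbols are shScramble and red symbols shYthdf2 libraries, circles replicate 1 and squares replicate 2.

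To show what precedes the genes that rose, their start regions were read from the RefSeq promoter table for GRCm38.p6, the assembly of mm10, which matched 69 of the 78 members with 75 promoters. Not matched were Mrpl13, Mrpl15, Mrpl19, Mrpl38, Mrpl4, Mrpl54, Mrps28, Mrps34 and Mrps35. The stretches below run from 200 bases before to 30 bases after the start, 5′ to 3′ on the gene's strand, at chr9:105053068-105053297 for Mrpl3 (plus strand), chr7:105811058-105811287 for Mrpl17 (minus strand) and chr16:18876608-18876837 for Mrpl40 (minus strand). Capitals mark letters that match the motif of NRF1 (GCGCANGCG), an activator of nuclear genes for mitochondrial proteins, or of the ETS factor GABP (CCGGAAGT), on either strand.
Mrpl3: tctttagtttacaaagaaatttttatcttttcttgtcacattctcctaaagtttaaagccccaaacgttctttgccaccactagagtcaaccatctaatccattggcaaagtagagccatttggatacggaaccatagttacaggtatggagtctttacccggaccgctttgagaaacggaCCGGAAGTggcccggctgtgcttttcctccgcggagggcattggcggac
Mrpl17: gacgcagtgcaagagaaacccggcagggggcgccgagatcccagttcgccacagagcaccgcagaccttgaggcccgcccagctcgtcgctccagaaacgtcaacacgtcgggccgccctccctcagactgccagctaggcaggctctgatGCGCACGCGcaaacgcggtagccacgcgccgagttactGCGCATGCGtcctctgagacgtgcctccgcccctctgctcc
Mrpl40: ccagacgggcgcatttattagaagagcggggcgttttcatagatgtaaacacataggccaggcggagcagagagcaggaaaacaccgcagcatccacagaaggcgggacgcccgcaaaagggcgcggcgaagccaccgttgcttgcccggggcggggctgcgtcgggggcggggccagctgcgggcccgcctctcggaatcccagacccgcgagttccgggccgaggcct
The Mrpl3 stretch held 1 GABP match that begins 19 bases before the start, and the Mrpl17 stretch held NRF1 matches that begin 49 and 11 bases before it. The Mrpl40 stretch held neither, although 67.0% of its bases were G or C, against 46.1% for Mrpl3. These 3 of the 4 genes that rose differed in these letters.

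Over the whole window of 250 bases before to 50 bases after the start, both strands searched, the NRF1 letters were in 16 of the 75 member promoters, or 21.3%, against 6.25% of all 32851 promoters. The motifs were picked after a first look at these promoters, in which NRF1 was searched in a form 1 base longer, found in 17.3% of member promoters against 4.6% of all. The GABP letters were in 16.0% of member promoters against 3.89% of all, and the shorter ETS core CCGGAAG, which lies inside them, in 34.7% against 8.86%. The letters of YY1 (AANATGGCG) were in 14.7% against 2.38%. At least 1 of NRF1, GABP and YY1 was in 48.0% of member promoters and 11.3% of all. The other motifs searched were the TATA box TATAAA, in 6.67% against 13.6%, the E-box CACGTG, in 9.33% against 7.15%, the CRE core TGACGT, in 13.3% against 7.51%, CCAAT, in 30 of the 75 against 37.4%, and the GC box GGGCGG, in 52.0% against 35.7%. Member promoters were also richer in G and C, with a median of 58.7% against 52.7%, and these shares were not adjusted for it or tested. The promoters of all genes belong to 27025 genes, whereas 18341 passed the filter on low counts and all members did. The shares were not compared with those of expressed genes only.

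Mitoribosomal protein genes often start beside another gene. For 24 of the 78, or 30.8%, the start of a gene on the other strand lay within 1000 bases upstream, against 13.5% of all genes tested, at a median distance of 92.5 bases. Mrps34 starts 33 bases from Eme2, which encodes a DNA repair nuclease subunit, and Mrpl40 starts 113 bases from Hira, which encodes a histone chaperone. Mrps11 and Mrpl46 are each other's neighbour, 42 bases apart. Of the 22 neighbours tested, 13 had a log2 fold change above 0 and 9 below, with a median of 0.06. Over all genes tested 50.2% were above 0. Mrps11 and Mrpl46 are among the 13, so not all neighbours lie outside the family. The adjusted threshold was passed by 0 of the 22 in edgeR or DESeq2. At an unadjusted p below 0.05 in edgeR there were 3, Ndufb5 and Mrpl46 higher and Ncapd2 lower, where 11% of all genes tested were higher and 9.8% lower. Hira was at a log2 fold change of 0.02 ± 0.11 (SE) beside 0.49 for Mrpl40, and Eme2 at 0.42 ± 0.37 (SE) beside 0.62 for Mrps34. The SE of Eme2 was too large to place it apart from Mrps34 or from 0.

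Other genes of mitochondrial translation were taken from lists by role. The 5 proteins of the mitochondrial ribosome with other gene names had a median log2 fold change of 0.39. Chchd1, a small subunit protein, was the only gene of these lists to pass in edgeR, with 30.4 and 29.5 CPM in the controls and 44.9 and 41.9 CPM after knockdown (log2 fold change 0.53 ± 0.13 SE, edgeR adjusted p = 0.0468). The call was lost in 5 of 13 other settings, with an adjusted p of 0.137 without shScramble replicate 2, 0.0820 without shYthdf2 replicate 1 and 0.0697 without shScramble replicate 1. Aurkaip1, another small subunit protein, had 67.7 and 61.1 CPM in the controls and 92.7 and 81.3 CPM after knockdown (adjusted p = 0.0750 in edgeR and 0.0251 in DESeq2). Dap3, a GTP-binding small subunit protein, had 112 and 121 CPM in the controls and 108 and 97.9 CPM after knockdown, below the controls.

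Factors that work with the ribosome gave medians closer to 0. The 13 translation factors had a median log2 fold change of −0.05, with 5 above 0, and 0 passed in edgeR or DESeq2, while 1 was higher and 1 lower at an unadjusted p below 0.05. That was 7.69% each way, against 11% higher and 9.8% lower over all genes tested in edgeR, of which 50.2% were above 0. Tufm, the elongation factor that brings aminoacyl-tRNA, had 149 and 142 CPM in the controls and 180 and 170 CPM after knockdown (edgeR adjusted p = 0.171). Guf1, a ribosome-bound GTPase, had 38.1 and 39.6 CPM in the controls and 28.6 and 30.9 CPM after knockdown (edgeR adjusted p = 0.127). The 22 genes tested for charging mitochondrial tRNAs were aminoacyl-tRNA synthetases and, for 3 of them (Qrsl1, Gatb and Gatc), subunits of the amidotransferase that completes glutaminyl-tRNA. They had a median of 0.06, with 0 passing in edgeR or DESeq2, 2 higher and 1 lower at an unadjusted p below 0.05. These were 9.09% and 4.55% of the 22, also below the shares over all genes. Mars2 (methionine) and Ears2 (glutamate) had log2 fold changes of 0.44 and 0.38.

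The 28 genes for ribosome assembly and rRNA modification had a median log2 fold change of 0.18, close to that of the ribosomal proteins, with 20 above 0, 0 past the adjusted threshold in edgeR and 6 higher at an unadjusted p below 0.05. The 6 were 21.4% of the 28, against 11% of all genes tested, and 50.2% of all genes were above 0. DESeq2 called 3 of the 28 higher, Mrm2, Ngrn and Mtg2, where 2.64% of the genes it fitted were called higher. Mrm2, which methylates the large rRNA, had 14.9 and 15.9 CPM in the controls and 23.3 and 22.05 CPM after knockdown (adjusted p = 0.0800 in edgeR and 0.0317 in DESeq2), and Ngrn, an assembly factor, had 39.1 and 38.7 CPM in the controls and 51.3 and 52.8 CPM after knockdown (adjusted p = 0.0757 in edgeR and 0.0357 in DESeq2). The 20 genes for mitochondrial transcription and mRNA maintenance had a median of 0.02, with 0 passing in edgeR, 3 higher at an unadjusted p below 0.05, and 2 called higher by DESeq2. The 3 were 15% of the 20, near the 11% of all genes. Tefm, the transcription elongation factor, had 20.4 and 17.2 CPM in the controls and 28.1 and 28.1 CPM after knockdown (adjusted p = 0.0687 in edgeR and 0.0199 in DESeq2), and Tbrg4, an RNA-binding protein of mitochondrial mRNAs, had 192 and 155 CPM in the controls and 268 and 227 CPM after knockdown (adjusted p = 0.0653 in edgeR and 0.00713 in DESeq2). The knockdown libraries were above the controls for all 4 of these genes.

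**Figure D5:**
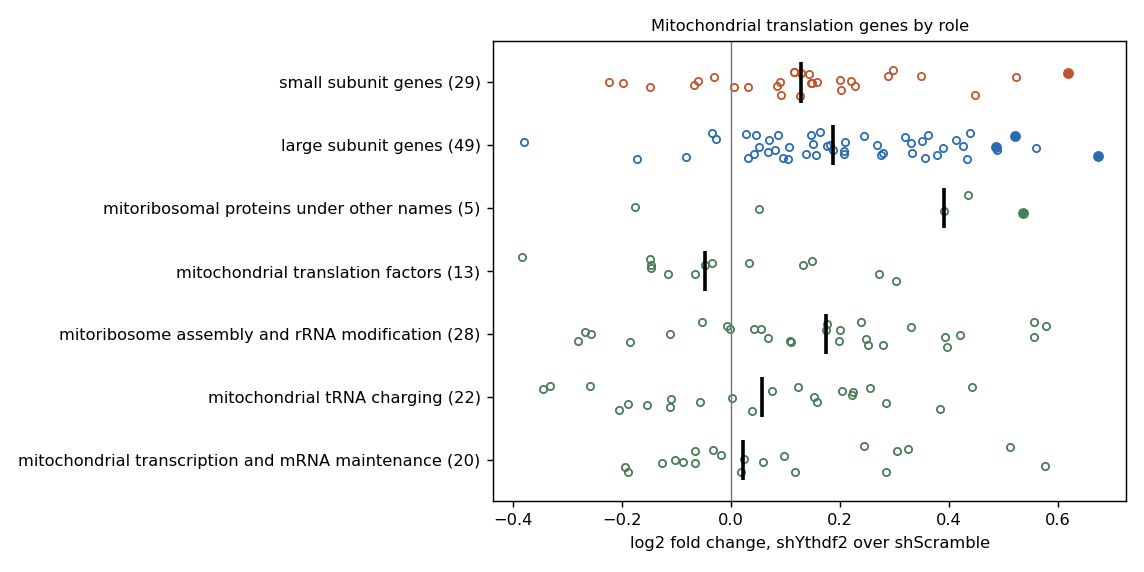
Log2 fold change of shYthdf2 over shScramble (x axis) for the small and large subunit genes and for 5 lists of other genes of mitochondrial gene expression, with the number tested in brackets; black lines are medians and filled points have an adjusted p below 0.05 in edgeR. The medians ran from −0.05 for translation factors to 0.39 for the 5 ribosomal proteins with other names.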

How the data were processed

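RNA from 4 libraries, 2 shScramble and 2 shYthdf2, was sequenced after poly(A) selection in a stranded paired-end protocol. Per the labels, the authors used fastp 0.19.4, HISAT2 2.2.1 and mm10. The deposited table holds raw read counts per gene, made by the authors with featureCounts 2.0.3 on NCBI RefSeq exons. Its header gives paired-end mode without pair counting and no strand option, so both reads of a pair and reads of antisense exons were counted. It had 0 unused sample columns and 0 unnamed rows. Depth is given as reads, and only counting error falls with it.

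Counts were fitted in edgeR 4.0.16 (limma 3.58.1, R 4.3.3) by the quasi-likelihood test, two-sided, with TMM scaling and filterByExpr (minimum count 10, total 15). This left 18341 genes, with a common biological coefficient of variation of 15.8%. DESeq2 1.42.0 was an alternative. RPKM used exon unions on the primary chromosomes, since some table lengths include alternate contigs. P-values were adjusted over all genes tested. The members and lists were chosen with earlier results of these data known. Named were members with an adjusted p below 0.05, the 5 of lowest p in each direction, the 3 largest changes each way, the 4 highest and 4 lowest levels, 8 with particular roles, from each list those passing and the 2 of lowest p, and Ythdf2. Motifs, and the genes named only for a neighbour, an overlap or as 1 of a few, were chosen after values were seen.

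The fit was tested on simulated data with known changes. With trended dispersions the false calls averaged under the nominal level. With gene-wise dispersions they ran above it in several draws, on average and in the first run made, after which the limit on false calls was required of the trended case only. Calls just below 0.05 (Mrpl40, Mrpl17, Chchd1) should be read with this.

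Alternatives were other scalings and filters, limma-voom, halved counts, a replicate block, leaving out each library, and other divisions of the members. Mtrfr, Kars1, Gars1 and Fastkd4 were not matched in the table by these symbols. Kars1, Gars1 and Fastkd4 are there as Kars, Gars and Tbrg4, which were analysed, whereas Mtrfr was not analysed here.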

Additional observations from a re-analysis of the deposited data

How the results depend on the processing

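The number of members higher after knockdown (4) was 2 with RLE scaling, upper quartile scaling and limma-voom, 10 with no filter on low counts and with DESeq2, and 0 under the study's criteria in DESeq2. Leaving out 1 library at a time gave 2 to 17. Over all genes, where 445 were higher and 273 lower, no filter gave 1095 and 843, DESeq2 gave 808 and 615, and leaving out 1 library gave 534 to 1175 and 300 to 1113. A fit with 1 library in a group assumes that it varies like the others. With the replicate number as a block, 20 members were higher and 1 lower (Mrpl9), and 1851 and 1674 genes overall. The numbers were not shown to pair the samples: the labels name no shared batch, and with only 2 pairs the correlation of deviations of same-numbered libraries was 0.317 over all genes and 0.367 over members. The small minus large subunit difference of medians (−0.06) was −0.0922 within replicate number 1, −0.0383 with subunits assigned by position, and −0.0732 to −0.0150 when leaving out 1 library. When 1 library was left out, 24 of the 78 members changed sign at least once: 4 without shScramble replicate 1, 10 without shScramble replicate 2, 16 without shYthdf2 replicate 1 and 4 without shYthdf2 replicate 2. Among the genes named by rule 4 did so, with ranges of −0.0213 to 0.0858 for Mrps18c (below 0 without shScramble replicate 1 or shYthdf2 replicate 1), −0.146 to 0.282 for Mrps18a (below 0 without shScramble replicate 2 or shYthdf2 replicate 1), −0.0491 to 0.220 for Mrps30 (below 0 without shYthdf2 replicate 1) and −0.263 to 0.0771 for Mrpl2 (above 0 without shYthdf2 replicate 2). Among the other listed genes of mitochondrial gene expression, edgeR called 1 higher (Chchd1), DESeq2 and the fit with no filter 7 (Chchd1, Aurkaip1, Mrm2, Mtg2, Ngrn, Tbrg4 and Tefm) and the replicate block 14 higher and 2 lower, and leaving out 1 library gave 0 to 7 higher and 0 or 1 lower. The cause of these changes was not tested. Subunit medians and sums kept their direction under every alternative run. With 2 libraries a group, no result rests on more than the spread between those libraries.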

Other observations

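The table also holds 6 pseudogene rows of this family, which the naming rule did not take. Mrpl48-ps had 190 and 206 reads in the controls and 236 and 200 after knockdown, so its groups overlapped. Mrpl27-ps had 27 and 26 reads in the controls and 61 and 49 after knockdown. Its parent gene Mrpl27 had 16.5 and 14.1 CPM in the controls and 22.5 and 18.7 CPM after knockdown (edgeR adjusted p = 0.202). How reads that fit both a gene and its pseudogene were shared out was not tested. Mrpl23-ps1 had 3 to 13 reads a library, and the 3 rows derived from Mrps36 had at most 6.

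The highest gene per length, Mrpl42, had 108 and 105 CPM in the controls and 118 and 109 CPM after knockdown, with a 95% interval of the log2 fold change of −0.15 to 0.32. The lowest, Mrpl48, had 21.2 and 21.2 CPM in the controls and 25.2 and 22.9 CPM after knockdown, with an interval of −0.15 to 0.51. Both lay above the controls in both knockdown libraries without passing the test. For Mrps25 the values were 37.4 and 38.2 CPM in the controls and 44.1 and 43.9 CPM after knockdown (edgeR adjusted p = 0.335).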
